A study of Mus musculus with 4 samples.

Results

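The 36 genes described here carry glucose into the cell, break it down to pyruvate and lactate, admit pyruvate to the mitochondrion, or divert sugar phosphates into the pentose phosphate pathway. They were chosen by gene symbol among the 24411 symbols measured, and all 36 were found. Of these, 35 passed the filter on low read numbers and 1, Eno1, did not. The libraries came from bone marrow cells of mice sorted by flow cytometry for B220, the CD45 form that B lineage cells carry on their surface, and their RNA was sequenced to ask how raised Arid5b, a DNA-binding protein with an ARID domain, affects B cell development. The genotypes compared were Arid5b overexpression, with 2 libraries, and wildtype, also with 2. The labels used here give no strain, sex, age or treatment, do not say which promoter or cell type drives Arid5b, and do not say whether each library came from its own animal, so p-values measure only the spread between these libraries.

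Glycolysis splits glucose into pyruvate and yields ATP and NADH, and lactate dehydrogenase restores NAD+ by turning pyruvate into lactate, which leaves the cell through monocarboxylate transporters. The oxidative branch of the pentose phosphate pathway makes NADPH, and its non-oxidative branch exchanges carbon between pentoses and glycolytic sugars, giving ribose for nucleotides. Many steps have several isoenzymes encoded by separate genes. In developing B cells, large dividing precursors are known to use more glucose than resting B cells.

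Arid5b itself stood at 3804 CPM (reads of the gene per 1000000 reads of the library) in the first overexpression-labelled library, called library 1, and at 136 CPM in the second, called library 2, against 149 and 174 CPM in wildtype libraries 1 and 2. Library 1 was 21.3-fold above the wildtype mean, while library 2 differed from it by -0.22 on the log2 scale (adjusted p = 0.439, limma) and so went against its label. CPM are scaled by the total alone, whereas differences and folds rest on the deposited values, which are scaled by a size factor per library, so a fold need not equal the ratio of CPM. Each overexpression-labelled library was therefore also set alone against wildtype. The libraries held 14196665 to 20356404 reads assigned to genes, of which the ribosomal RNA gene Rn45s took 25.7% to 30.5%. Library 1 also stood apart in its markers. Cycling genes (10 of 10 tested called higher) summed to 3055 CPM in library 1 and 223 CPM in library 2, against 151 and 172 CPM in wildtype, and pro-B and pre-B markers to 3814 and 2.55 CPM, against 8.74 and 3.66 CPM. Of the 7 pro-B and pre-B markers, 2 passed the filter and 1 was called higher in library 1. The other, Dntt, was not called, with 4 and 22 reads against 23 and 10 reads in wildtype. Igll1 alone gave 2362 CPM of the sum in library 1. Mature B cell markers summed to 186 CPM in library 1 and 17794 CPM in library 2, against 18976 and 19637 CPM in wildtype, with 5 of 5 tested called lower in library 1. B lineage markers were detected in every library, at 3079 and 4732 CPM against 4402 and 4887 CPM. All 6 were called in library 1, 3 higher and 3 lower. Among the falls, Ptprc, the gene of CD45, stood at 371.9 and 1879.5 CPM, against 1772.2 and 1957.5 CPM in wildtype. Neutrophil markers summed to 150 CPM in library 1 and 1653 CPM in library 2, against 7.30 and 112 CPM in wildtype. Of the 11 tested, 5 were called higher in library 1 and 11 in library 2, and wildtype library 1 had 5 of the 12 listed at 0. All 5 globin genes were at 0 in every library. T and NK cell markers summed to 2.62 and 21.1 CPM, against 39.5 and 37.8 CPM in wildtype, plasmacytoid dendritic cell markers to 163 and 351 CPM, against 432 and 335 CPM, and monocyte and macrophage markers to 9.36 and 11.4 CPM, against 14.7 and 11.6 CPM. The part that these differences in cell composition, cell cycle and labelling play in the results below was not tested, and in bulk RNA a change in the cells present and a change in RNA per cell cannot be told apart.

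In overexpression-labelled library 1, most of the pathway differed from wildtype, in both directions. Of the 35 genes tested, 18 were higher and 8 were lower (74.3% called), while 61.1% of all 12617 genes tested were called, 26.6% of them higher and 34.5% lower. Here called means an adjusted p below 0.05 in limma's moderated test on the deposited log2 values, adjusted over all genes by the Benjamini-Hochberg method, with the spread taken from the wildtype pair and a prior across genes. The lone library is assumed to vary as wildtype does. The genes that rose included Tpi1, Slc16a1, Pgd, Ldha, Tkt and Pdha1, each by more than 3-fold in normalised reads, and those that fell included both glucose transporters and the isoforms Pfkp, Pfkfb4, Aldoc, Eno2 and Ldhb. The median difference over the 35 genes was 0.51 log2 units, against -0.15 over all genes tested. The differences ran from -2.53 to 2.44. Of the genes tested, 4 (Hk3, Eno2, Ldhb and Slc16a3) had fewer reads in library 1 than the filter asks for and were kept through the other libraries, and of these Eno2 and Ldhb were called lower. Without the filter, 17905 genes were tested and 5 of the 18 rises and 3 of the 8 falls were still called.

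Library 2 lay close to wildtype. None of the 35 genes was called in it by limma, against 1.41% of all genes tested (0.65% higher and 0.761% lower). The smallest adjusted p was 0.0957 (Aldoa), and 5 of the 35 had an unadjusted p below 0.05. With limma-voom on the recovered reads, Aldoa alone was called. The median difference was 0.13 log2 units, against 0.01 over all genes tested, and 26 of the 35 lay above the wildtype mean. The difference between the overexpression-labelled libraries was also tested: 11 of the 35 were higher and 8 lower in library 1 than in library 2 (54.3%), against 52.6% of all genes (22.4% higher and 30.1% lower). Of the 26 genes called in library 1 against wildtype, 18 were called in the same direction against library 2. These comparisons share their libraries and are not independent of each other.

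Taken as groups by label, 2 libraries against 2, none of the 35 genes was called by limma, and 0% of all genes were. None of the 35 had an unadjusted p below 0.05, while 280 of all genes did, and limma-voom also called none. Without library 2, the comparison by label called 18 of the 35 higher and 8 lower, against 26.8% of all genes higher and 34.4% lower. The median difference was 0.37 log2 units, against -0.08 over all genes. The largest differences were those of Tpi1, 1.57 (SE 0.671), Eno2, -1.41 (SE 0.864), and Pgd, 1.22 (SE 0.463), each with an adjusted p of 0.726. Both overexpression-labelled libraries lay above both wildtype libraries for 13 genes and below them for 4, together 17 of 35, while the groups did not overlap for 42.6% of all genes tested (19.6% above and 23% below).

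**Figure D1:**
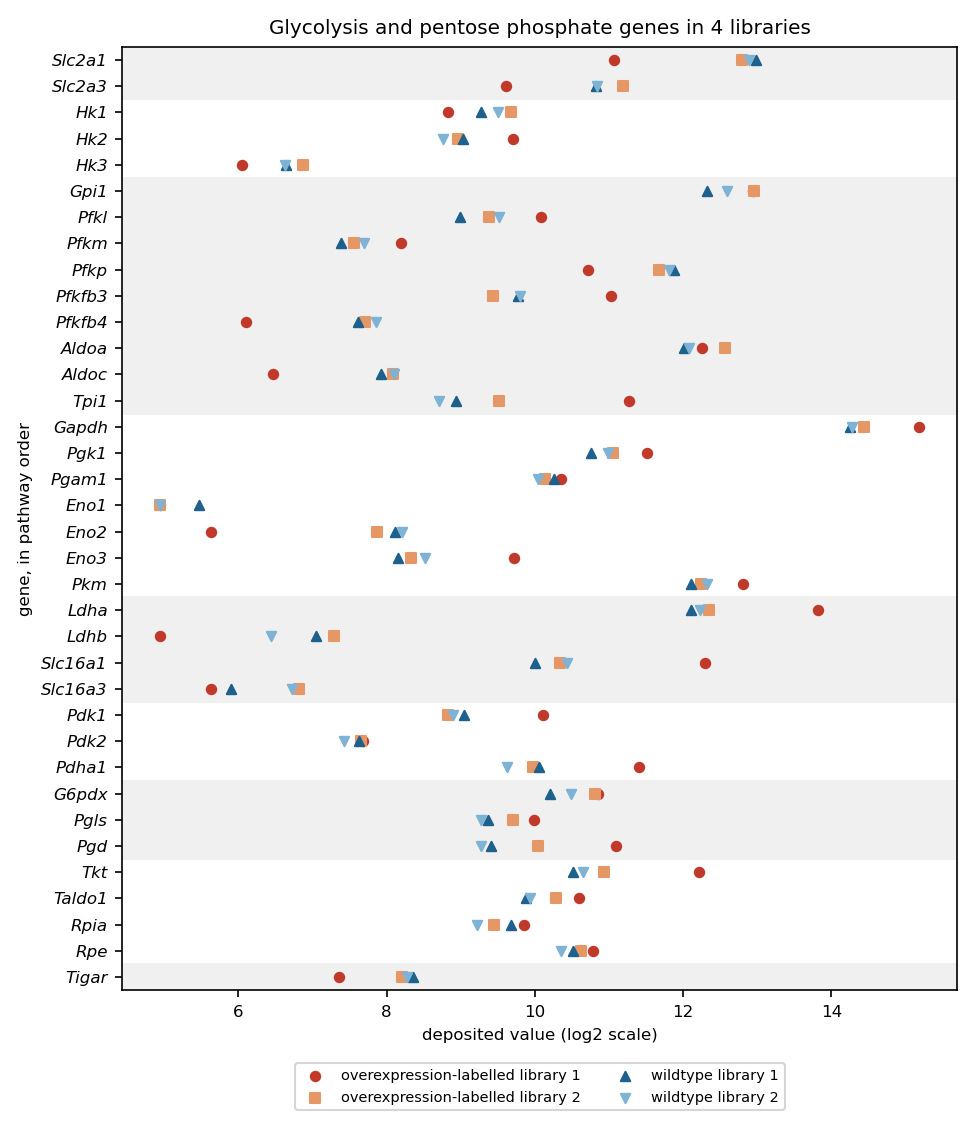
Deposited value (log2 scale, horizontal axis) of each of the 36 genes in pathway order, with 1 point per library: overexpression-labelled libraries 1 and 2 and wildtype libraries 1 and 2. Points of library 1 lie away from the other 3 libraries for Tpi1, Eno2 and Slc16a1, while library 2 lies between the wildtype points for 11 of the 35 genes tested, above both for 18 and below both for 6.

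The promoters of the 3 genes of the list with the largest fitted rise in library 1 (Tpi1, Slc16a1 and Pgd) and of the 3 with the largest fitted fall (Eno2, Slc2a1 and Ldhb) are shown so that their motifs can be read against the direction of change. Each window runs from 250 bases before to 50 bases after a RefSeq transcription start (GRCm38.p6), written 5′ to 3′ on the gene's own strand. Capitals mark the letters ACGTG on either strand (CACGT when read on the opposite strand), a form of the core of hypoxia response elements. Other forms of that core were not searched or marked. A run in capitals that reads CACGTG is an E-box, which MYC and related factors bind.
Tpi1: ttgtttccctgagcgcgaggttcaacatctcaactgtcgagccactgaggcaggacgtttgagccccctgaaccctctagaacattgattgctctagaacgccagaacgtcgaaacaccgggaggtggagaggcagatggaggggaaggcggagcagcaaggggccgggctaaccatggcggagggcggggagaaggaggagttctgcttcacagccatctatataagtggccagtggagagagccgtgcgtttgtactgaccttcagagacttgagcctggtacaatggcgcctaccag
Slc16a1: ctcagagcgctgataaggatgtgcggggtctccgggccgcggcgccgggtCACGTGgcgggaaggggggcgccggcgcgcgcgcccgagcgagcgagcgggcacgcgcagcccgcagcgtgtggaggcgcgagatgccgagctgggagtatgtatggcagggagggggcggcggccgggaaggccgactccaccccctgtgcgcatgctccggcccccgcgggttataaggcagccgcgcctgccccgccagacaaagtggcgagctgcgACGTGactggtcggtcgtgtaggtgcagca
Pgd: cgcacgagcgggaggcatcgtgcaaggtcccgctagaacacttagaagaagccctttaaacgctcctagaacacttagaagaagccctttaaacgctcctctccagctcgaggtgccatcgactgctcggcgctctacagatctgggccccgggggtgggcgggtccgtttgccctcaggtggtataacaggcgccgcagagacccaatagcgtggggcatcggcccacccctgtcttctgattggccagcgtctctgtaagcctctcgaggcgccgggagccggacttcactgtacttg
Eno2: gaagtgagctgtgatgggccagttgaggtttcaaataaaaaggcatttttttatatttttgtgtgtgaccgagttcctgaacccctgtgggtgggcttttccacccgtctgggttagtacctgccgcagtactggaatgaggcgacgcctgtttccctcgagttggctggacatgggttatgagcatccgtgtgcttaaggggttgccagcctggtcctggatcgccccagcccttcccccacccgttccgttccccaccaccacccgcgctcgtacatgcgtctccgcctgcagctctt
Slc2a1: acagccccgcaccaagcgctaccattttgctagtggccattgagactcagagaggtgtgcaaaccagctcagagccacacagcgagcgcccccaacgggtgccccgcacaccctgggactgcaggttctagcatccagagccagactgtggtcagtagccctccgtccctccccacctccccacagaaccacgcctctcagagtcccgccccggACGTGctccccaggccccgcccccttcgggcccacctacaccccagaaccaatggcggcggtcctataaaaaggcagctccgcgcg
Ldhb: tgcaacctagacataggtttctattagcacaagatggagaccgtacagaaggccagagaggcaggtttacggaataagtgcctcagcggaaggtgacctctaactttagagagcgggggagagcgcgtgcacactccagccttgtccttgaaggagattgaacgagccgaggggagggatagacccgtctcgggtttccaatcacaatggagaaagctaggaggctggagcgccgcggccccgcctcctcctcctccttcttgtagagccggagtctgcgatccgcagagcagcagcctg
The Slc16a1 window, at chr3:104638414-104638713 on the plus strand, held 2 capital runs, of which 1 was CACGTG. Slc2a1, which fell, had 1 run, of the shorter letters (chr4:119108495-119108794, plus strand). The other 4 windows, all on the minus strand, held none: Tpi1 (chr6:124814109-124814408) and the first of the 2 listed starts of Pgd (chr4:149166656-149166955), which rose, and Eno2 (chr6:124769624-124769923) and Ldhb (chr6:142507908-142508207), which fell. RefSeq listed 50 starts for 35 of the 36 genes. ACGTG was found in 20 of these 50 windows (40%), against 19.6% of all 32851 windows, and CACGTG, which always contains ACGTG, in 5 of 50 (10%), against 7.15%. Among windows of genes called higher in library 1, 9 of 23 held ACGTG (39.1%), and among those of genes called lower, 2 of 8 (25%). A match to these letters is a description and not a binding site. Myc itself was called lower in library 1 (-0.67 log2 units, adjusted p = 0.0195, limma). It stood at 278 CPM in library 1 and 757 CPM in library 2, against 302 and 529 CPM in wildtype. Hif1a, the gene of a hypoxia-inducible factor, was not called in library 1 (-0.03, adjusted p = 0.851). A link between these levels and the motifs was not tested.

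Both glucose transporters were lower in library 1. Slc2a1, which encodes the widely expressed transporter GLUT1, stood at 58.2 CPM in overexpression-labelled library 1 and at 175 CPM in library 2, against 200.48 and 191 CPM in wildtype. It fell by 1.87 log2 units in library 1 (SE 0.139, adjusted p = 1.53e-07, limma). Slc2a3, which encodes the high-affinity transporter GLUT3, stood at 20.2 and 56.5 CPM, against 43.7 and 44.9 CPM in wildtype. It fell by 1.22 log2 units (SE 0.182, adjusted p = 8.99e-05). In each case library 1 was the only low library. Library 2 was below both wildtype libraries for Slc2a1 and above both for Slc2a3, and neither difference was called.

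The hexokinases, which trap glucose in the cell by phosphorylating it, did not move together. Hk2, the inducible form, stood at 21.6 and 11.0 CPM in overexpression-labelled libraries 1 and 2, against 11.6 and 9.51 CPM in wildtype, and rose by 0.81 log2 units in library 1 (adjusted p = 0.0197, limma). Hk1, the housekeeping form, stood at 11.0 and 18.9 CPM, against 13.8 and 16.9 CPM, a difference of -0.56 in library 1 that was not called (adjusted p = 0.073). Hk1 was lower in library 1 than in library 2 by 0.85 log2 units, and that difference was called (adjusted p = 0.027), though not with 3 other scalings of the libraries. Hk3, with 8 and 32 reads against 24 and 17 reads, was not called. Per length of exon, Hk2 made up 73.7% of the reads of Hk1 and Hk2 together in library 1 (exact binomial 95% interval 69.9% to 77.3%) and 45.3% in library 2, against 54.4% and 44.6% in wildtype. These intervals cover counting error only, and no share was tested, because an exact permutation of 2 against 2 libraries cannot reach the threshold.

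Upper glycolysis runs from glucose phosphate to triose phosphates, and 7 of its 9 genes were called in library 1, 4 higher and 3 lower. Such counts per branch stand beside 61.1% of all genes tested called in library 1, 26.6% higher and 34.5% lower. Tpi1, the isomerase that interconverts the triose phosphates, showed the largest rise of the list: 67.0 CPM in overexpression-labelled library 1, 16.8 CPM in library 2, against 10.7 and 9.16 CPM in wildtype. It rose by 2.44 log2 units in library 1 (SE 0.237, adjusted p = 1.91e-06, limma), or 6.08-fold in normalised reads. Both overexpression-labelled libraries lay above both wildtype libraries, library 1 far above library 2. Pfkfb3 and Pfkfb4 make and remove the fructose bisphosphate that activates phosphofructokinase, and they went opposite ways. Pfkfb3 stood at 56.3 and 15.7 CPM, against 20.4 and 21.2 CPM in wildtype, and rose by 1.23 log2 units in library 1 (SE 0.209, adjusted p = 0.000239). Pfkfb4 stood at 0.589 and 3.78 CPM, against 3.47 and 4.44 CPM, or 9 and 77 reads against 70 and 63 reads. It fell by 1.63 log2 units in library 1 (SE 0.384, adjusted p = 0.00272).

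The phosphofructokinase isoforms, which catalyse the committed step, also parted. Pfkp, the platelet isoform, stood at 45.4 and 80.0 CPM in the overexpression-labelled libraries, against 92.3 and 90.2 CPM in wildtype, and fell by 1.12 log2 units in library 1 (SE 0.155, adjusted p = 4.56e-05, limma). Pfkl, the liver isoform, stood at 28.5 and 15.2 CPM, against 11.2 and 17.0 CPM, and rose by 0.83 (adjusted p = 0.017). Library 1 was the lowest library for Pfkp and the highest for Pfkl. Pfkm, the muscle isoform, was not called, at 6.54 and 3.29 CPM against 2.78 and 3.80 CPM. Aldolase C (Aldoc) stood at 1.05 and 5.31 CPM, against 4.62 and 5.49 CPM in wildtype, with 16 reads in library 1, and fell by 1.54 log2 units there (SE 0.364, adjusted p = 0.00268). Aldolase A (Aldoa), the main form in every library, stood at 135 and 150 CPM, against 101 and 109 CPM, and was not called in library 1 (0.21, adjusted p = 0.204) except with scaling by library totals (adjusted p = 0.0451) or by totals without Rn45s (adjusted p = 0.03). Gpi1, the isomerase that follows hexokinase, stood at 218 and 196 CPM, against 127 and 155 CPM, and rose by 0.48 in library 1 (adjusted p = 0.0121).

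Of the 6 genes of lower glycolysis that were tested, 4 rose, 1 fell and Pgam1, the phosphoglycerate mutase, was not called. Over all genes tested, 26.6% were called higher and 34.5% lower in library 1. Gapdh, the oxidising step, was the most abundant gene of the list per length of exon in every library. It stood at 1035 and 553 CPM in the overexpression-labelled libraries, against 484 and 506 CPM in wildtype, and rose by 0.92 log2 units in library 1 (adjusted p = 2.43e-05, limma). Pgk1, the first ATP-forming step, stood at 80.0 and 51.4 CPM, against 41.6 and 49.9 CPM, and rose by 0.65 (adjusted p = 0.00645). Pyruvate kinase (Pkm), the last step, stood at 199 and 119 CPM, against 109 and 128 CPM, and rose by 0.60 (adjusted p = 0.0034). Much of their sequence recurs in other annotated genes, mostly pseudogenes: of all windows of 50 bases in the transcripts, 82.5% of those of Gapdh, 68% of Pgk1, 41.5% of Pgam1 and 34.4% of Pkm are also found in transcripts of another gene, so their reads could be split or lost in counting. The same holds for 27% of the windows of Ldhb, 25.3% of Gpi1, 16.7% of Ldha and 13.5% of Aldoa, and overlap with a neighbouring gene accounts for 17.1% of the windows of Pfkp (Pitrm1), 16.5% of Pdha1 (Map3k15) and 19.1% of Rpe (Kansl1l).

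The enolases convert phosphoglycerate to phosphoenolpyruvate. Eno3, the muscle isoform, stood at 21.8 CPM in overexpression-labelled library 1 and at 6.53 CPM in library 2, against 5.61 and 7.82 CPM in wildtype, and rose by 1.39 log2 units in library 1 (SE 0.304, adjusted p = 0.00166, limma). Eno2, the neuronal isoform, had 3 reads in library 1 and 90 in library 2, against 110 and 86 in wildtype. It fell by 2.53 log2 units in library 1 (SE 0.373, adjusted p = 7.8e-05). In normalised reads that was 32.5-fold lower, with a 95% counting interval of 11.1 to 157. Eno1, the ubiquitous isoform, was listed with 0 and 0 reads, against 2 and 0 reads in wildtype, and could not be tested. Of its transcript windows, 70.5% are shared with the gene Eno1b, which had 312 and 163 reads against 158 and 116 reads. Eno1b, which is not among the 36 genes, was called higher in library 1 (1.07 log2 units, adjusted p = 0.00528, limma). Reads within the shared windows cannot be assigned to 1 of these loci, so no enolase shares are given. Why Eno1 was listed with so few reads was not tested. Tpi1 and Eno2, the largest rise and the largest fitted fall of the list, lie 40.9 kb apart on the minus strand of chromosome 6 (chr6:124810586-124814296 and chr6:124760053-124769673, GRCm38). Gapdh lies on the same chromosome and strand at chr6:125161715-125166467, 347 kb from Tpi1, and 8 of the 36 genes are on chromosome 6.

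**Figure D2:**
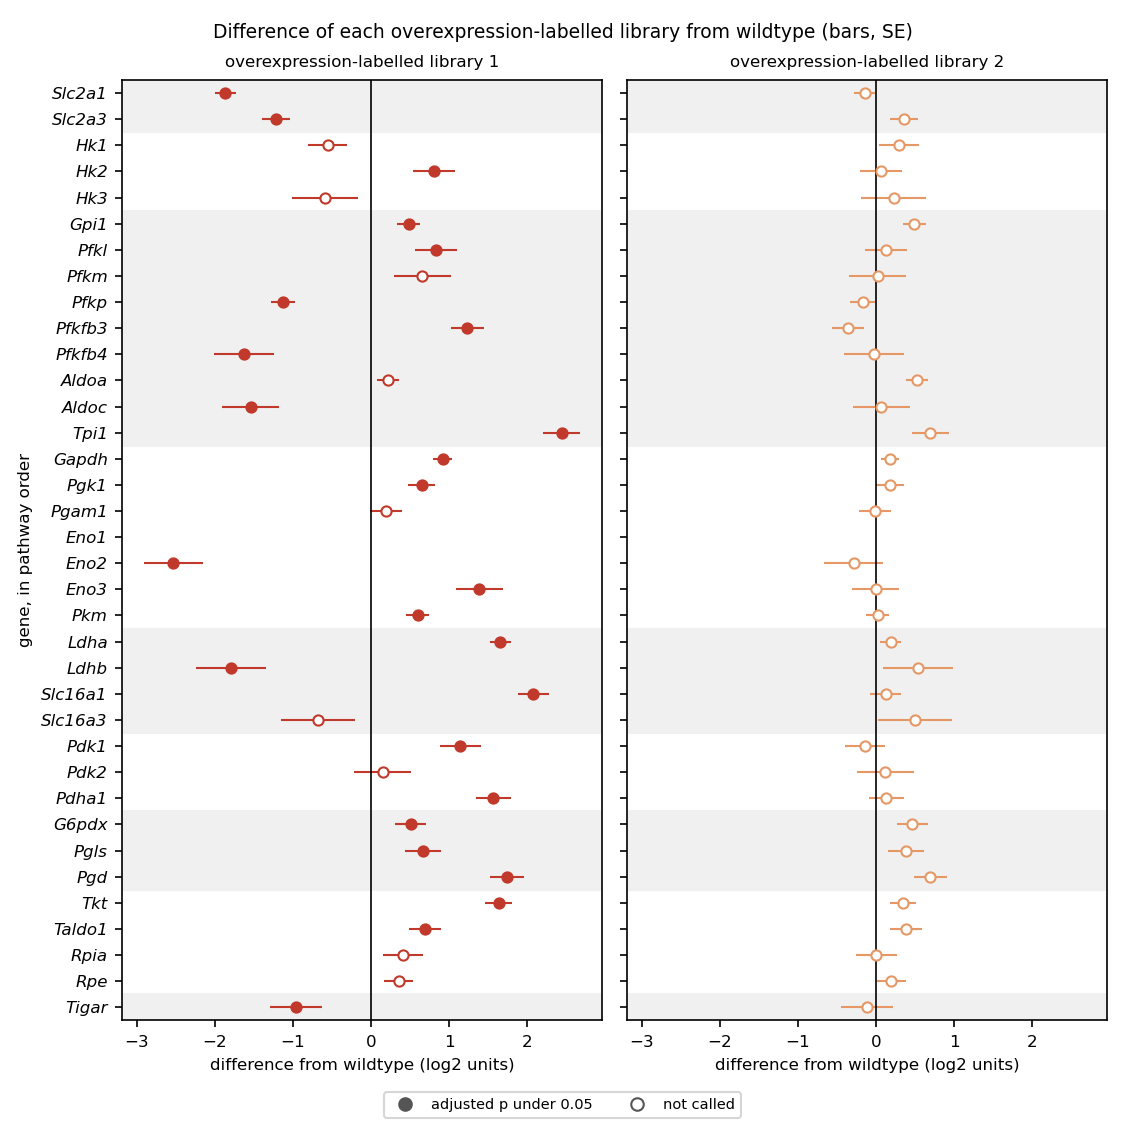
Difference of overexpression-labelled library 1 (left) and library 2 (right) from the wildtype mean in log2 units, with bars for the standard error, for each gene in pathway order; filled points have an adjusted p under 0.05. Library 1 spans -2.53 to 2.44 with 26 filled points, and library 2 has none.

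Of the 4 lactate genes, 2 rose and 1 fell in library 1, where 61.1% of all genes tested were called. Ldha, the form that favours lactate production, stood at 402 CPM in overexpression-labelled library 1 and at 129 CPM in library 2, against 108 and 121 CPM in wildtype. It rose by 1.66 log2 units in library 1 (SE 0.137, adjusted p = 4.2e-07, limma), or 3.18-fold in normalised reads. Ldhb, the form that favours lactate oxidation, had 0 reads in library 1 and 51 in library 2, against 39 and 13 in wildtype. Set against a floor of 3 reads, it was at least 8.07-fold lower in library 1 than the wildtype mean (adjusted p = 0.00398 in limma). Library 2 stood above both wildtype libraries for Ldhb but was not called. Slc16a1, the proton-linked lactate transporter MCT1, stood at 139 and 30.8 CPM, against 24.1 and 33.5 CPM, and rose by 2.08 log2 units in library 1 (SE 0.204, adjusted p = 2.12e-06), or 4.35-fold. Slc16a3, the lactate exporter MCT4, had 3 and 30 reads, against 7 and 19 reads, and was not called. Slc16a1 was thus the main lactate transporter of the pair in each library.

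At the entry of pyruvate to the mitochondrion, Pdha1, the catalytic subunit gene of the pyruvate dehydrogenase complex, and Pdk1, a kinase that inhibits that complex, rose together in library 1. Pdha1 stood at 73.8 and 23.5 CPM in the overexpression-labelled libraries, against 24.9 and 18.6 CPM in wildtype, and rose by 1.56 log2 units (SE 0.222, adjusted p = 5.67e-05, limma). Pdk1 stood at 29.1 and 9.82 CPM, against 11.6 and 10.6 CPM, and rose by 1.14 (SE 0.257, adjusted p = 0.00192). In both genes library 2 lay among or just beside the wildtype libraries. Pdk2, a related kinase, stood at 4.12 and 3.59 CPM, against 3.52 and 2.96 CPM, and was not called.

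All 3 genes of the oxidative pentose phosphate branch were higher in library 1, where 26.6% of all genes tested were called higher. Pgd, the dehydrogenase of the second NADPH-forming step, stood at 59.0 CPM in overexpression-labelled library 1 and at 24.8 CPM in library 2, against 15.5 and 14.3 CPM in wildtype. It rose by 1.74 log2 units in library 1 (SE 0.214, adjusted p = 1.6e-05, limma). G6pdx, which opens the pathway, stood at 49.9 and 43.3 CPM, against 27.8 and 35.1 CPM, and rose by 0.51 (adjusted p = 0.0391), a call lost when log2 of normalised reads plus 0.5 was tested (adjusted p = 0.0522). The lactonase Pgls stood at 26.6 and 19.4 CPM, against 14.9 and 14.3 CPM, and rose by 0.66 (adjusted p = 0.0253). For each of the 3 genes both overexpression-labelled libraries lay above both wildtype libraries, as they did for 19.6% of all genes tested. Library 2 was not called for any of them, with differences of 0.39 to 0.70 log2 units.

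In the non-oxidative branch, 2 of 4 genes rose in library 1, where 26.6% of all genes tested were called higher. Transketolase (Tkt), which moves carbon pairs between sugars, stood at 131 and 47.0 CPM in the overexpression-labelled libraries, against 34.7 and 39.4 CPM in wildtype, and rose by 1.64 log2 units in library 1 (SE 0.17, adjusted p = 3.62e-06, limma). Transaldolase (Taldo1) stood at 41.4 and 29.7 CPM, against 21.99 and 23.3 CPM, and rose by 0.69 (adjusted p = 0.00988). The ribose phosphate isomerase Rpia, at 24.1 and 16.0 CPM against 18.8 and 13.7 CPM, and the epimerase Rpe, at 47.5 and 38.0 CPM against 34.8 and 31.8 CPM, were not called, although Rpe was with scaling by library totals (adjusted p = 0.0319) or by totals without Rn45s (adjusted p = 0.0382). Tigar, a p53-induced phosphatase that lowers the activator of phosphofructokinase, stood at 3.01 and 5.89 CPM, against 6.70 and 6.41 CPM, and fell by 0.96 in library 1 (adjusted p = 0.0248; 0.0505 with scaling by totals without Rn45s).

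Isoform shares were set side by side without a test. For each of 8 isoform pairs, the share of normalised reads per kilobase of exon held by 1 gene of the pair was computed in each library. Pfkl held 55.8% of the sum of Pfkl and Pfkp in overexpression-labelled library 1 and 27.6% in library 2, against 19.6% and 27.5% in wildtype. Per length of exon, Pfkp was thus the larger of the pair in every library but library 1. Without length correction Pfkl held 38.6% in library 1, and Pfkp was the larger in every library. Pfkfb4 held 1.60% of the sum of Pfkfb4 and Pfkfb3 in library 1 and 27.2% in library 2, against 20.9% and 24.5%. Pdk2 held 25.8% of the sum of Pdk2 and Pdk1 in library 1 and 47.3% in library 2, against 42.7% and 40.8%. In these pairs library 1 stood apart and its exact binomial interval overlapped that of no other library. Aldoc held 0.689% of the sum of Aldoc and Aldoa in library 1 and 3.05% in library 2, against 3.92% and 4.32%. Ldhb held 0% of the sum of Ldhb and Ldha in library 1, with an upper limit of 0.126% by the exact interval, and 3.93% in library 2, against 3.63% and 1.58%. Slc16a3 held 0.118% of the sum of Slc16a3 and Slc16a1 in library 1 and 3.83% in library 2, against 1.18% and 3.22%. The minor form of each of these 3 pairs held less than 5% in every library, and here too the interval of library 1 overlapped that of no other library. In the glucose transporter pair, Slc2a3 held 14.3% and 13.5% in the overexpression-labelled libraries, against 9.54% and 10.2% in wildtype. Both overexpression-labelled libraries thus lay above both wildtype libraries. The same held for Pfkl, though in library 2 only by 27.59% against 27.51% in wildtype library 2. For Aldoc both lay below both wildtype libraries. None of these separations was tested.

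**Figure D3:**
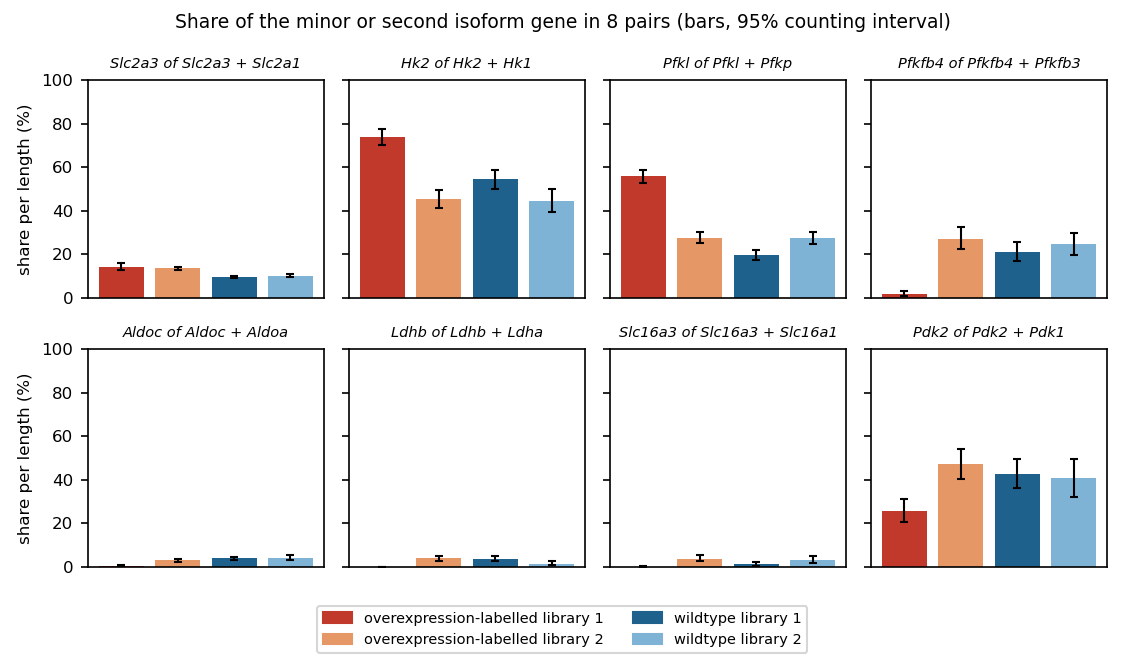
Share (%) of an isoform pair held by the named gene in each library, from normalised reads per kilobase of exon, with exact binomial 95% intervals that cover counting error only. Library 1 stands apart for Hk2 (73.7%), Pfkl (55.8%), Pfkfb4 (1.60%) and Pdk2 (25.8%), while library 2 lies nearer to wildtype for these genes. The library 1 interval also overlaps that of no other library for Aldoc, Ldhb and Slc16a3, whose shares are small in every library.

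Further genes of these pathways, from a list of 54 that are not among the 36, also differed from wildtype in both directions. Of the 39 that passed the filter, 14 rose and 9 fell in library 1 (59.0% called, against 61.1% of all genes), with a median of 0.16 log2 units. In library 2, 1 rose (2.56%, against 1.41% of all genes). The largest rises among those tested were those of Me1, cytosolic malic enzyme, with 71 and 14 reads in the overexpression-labelled libraries against 4 and 1 in wildtype (2.28, adjusted p = 0.000609, limma), and of Prps2, which makes the activated ribose of nucleotides (1.52, adjusted p = 5.4e-05). Dlat, another subunit of pyruvate dehydrogenase, followed at 3.04-fold in normalised reads (adjusted p = 9.33e-05). Slc2a6, a lysosomal sugar transporter, had 12 and 772 reads, against 1254 and 950 in wildtype, and fell by 5.08 log2 units (adjusted p = 7.59e-10). The transketolase-like gene Tktl1 and the monocarboxylate transporter gene Slc16a7 had 0 reads in library 1, at least 83.0-fold and 27.6-fold below the wildtype mean. Their counts in library 2 were 143 and 65 reads, against 328 and 186 reads of Tktl1 and 105 and 65 reads of Slc16a7 in wildtype. In library 2, Bsg, the chaperone of the lactate transporters, stood at 68.5 CPM, against 38.2 and 42.5 CPM in wildtype, and rose by 0.76 (adjusted p = 0.0434), a call that ended in 5 of 9 alternatives with a test (highest adjusted p = 0.279). Bsg stood at 90.4 CPM in library 1.

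Among the 36 genes, Pgk1, Pdha1 and G6pdx are on the X chromosome, and the libraries differed in sex-linked transcripts. Xist, which is transcribed from the inactive X chromosome, had 68540 and 132008 reads in overexpression-labelled libraries 1 and 2, against 24 and 77255 reads in wildtype libraries 1 and 2. The Y-linked gene Ddx3y had 0 and 0 reads, against 3260 and 1 reads. Wildtype library 1 thus differed from the other 3 libraries in both genes, with the pattern of male cells against that of female cells. The wildtype pair, from which the spread of the single-library tests was taken, therefore differed in these transcripts. The part of this difference in the values of the X-linked genes and in that spread was not tested.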

How the data were processed

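RNA was sequenced from B220-sorted marrow cells in 4 libraries. The submitters' processing notes name STAR, HTSeq, DESeq2 and the build mm10, without versions. The deposited values are log2 expression on a variance-stabilised scale whose floor is 4.95, as tested on the files. The inverse of that transformation gave whole reads for 100% of the values in each library (within 0.01), and CPM, shares and folds were computed from those reads, at 14196665 to 20356404 reads per library. Rn45s took 25.7% to 30.5% of them. Differences were tested on the deposited log2 values with limma 3.58.1 (R 4.3.3, limma-trend, two-sided, Benjamini-Hochberg adjusted), a count test not being used because the deposited unit is log2. Genes were kept with at least 0.565 CPM in 2 libraries and 15 reads in total, leaving 12617. Log2 differences understate the change of genes with few reads. The script was tested on simulated data.

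Library 1 and library 2 were each set against wildtype in a 3-group fit, and both together in a 2-group fit. Lengths, positions and shared windows came from GENCODE vM21 (GRCm38) for all 36 genes, and promoters from RefSeq. The genes and lists were chosen with earlier results of these data known. Every gene of the list is accounted for, with full statistics where the difference was at least 1 log2 unit and called. Of other lists, the 3 largest called differences each way are named, and Myc and Hif1a are given beside the motifs. The genotype of wildtype library 2 is misspelled and was taken to mean wildtype. For library 1, the name heading the values is 1 character off the sample's title; it was assigned to that sample, under which its file is recorded. Alternatives were library totals, totals without Rn45s, recomputed size factors, TMM, log2 of normalised reads plus 0.5, limma-voom, a robust prior, no filter, 5 CPM in 2 libraries, and each library left out.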

Additional observations from a re-analysis of the deposited data

How the results depend on the processing

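Signs were followed under the alternatives with a test for all 35 genes in library 1 against wildtype. In library 2 and by label they were followed for the 3 largest differences, and between the overexpression-labelled libraries for the genes called. None of these changed sign, but the balance of calls over all genes shifted. Other differences by label did change sign without library 1. These were the differences of Slc2a3, Hk1, Hk3, Pfkfb3, Aldoc, Pgam1, Eno3, Ldhb, Slc16a3 and Pdk1. Among them, Pfkfb3 went from 0.44 to -0.36, Slc2a3 from -0.43 to 0.36 and Ldhb from -0.63 to 0.54. Pgam1 and Eno3 ended at -0.01 each. Without overexpression-labelled library 2 the comparison by label called 18 of the 35 genes higher and 8 lower; over the libraries left out in turn it called 0 to 18 genes of the list higher and 0 to 8 lower, 0 to 3377 of all genes higher and 0 to 4344 lower, with a median over the list of 0.13 to 0.51, and totals without Rn45s moved that median to 0.50. For library 1 against wildtype the median was 0.67 with library totals, 0.72 with totals without Rn45s, 0.63 with recomputed size factors and 0.65 with 5 CPM in 2 libraries, while that of all genes was -0.03 with totals and 0.02 without Rn45s. The share of calls that were higher, 43.6% of all genes called, was 50.1%, 51.4% and, with no filter, 57.6%. With no filter, 5 genes of the list stayed higher and 3 lower in library 1 (Slc2a1, Slc2a3, Pfkp, Pfkfb3, Gapdh, Ldha, Pgd and Tkt), among 1470 and 1083 genes; the other 18 calls were lost. Aldoa and Rpe were called higher with either total, Tigar was not called without Rn45s (adjusted p = 0.0505, limma) and G6pdx not with log2 plus 0.5 (0.0522). For library 2, genes called higher and lower numbered 82 and 96, and 140 and 174 with totals, 13 and 13 without Rn45s, 0 and 0 with recomputed size factors or no filter, 28 and 31 with TMM, 7 and 12 with log2 plus 0.5, and 252 and 177 with limma-voom, which called 1 gene of the list. For library 1 minus library 2 the median over the list, 0.28, was 0.45, 0.49, 0.40 and 0.40 with totals, totals without Rn45s, recomputed size factors and 5 CPM; with no filter 1118 and 1368 genes were called, 1 and 2 of them on the list. Hk1 lost its call there under both totals and recomputed size factors. Without length correction the share of library 1 minus wildtype was 7.26 points for Slc2a3 (4.48 with it), 25.2 for Pfkl (32.2), -14.9 for Pfkfb4 (-21.1), -3.82 for Aldoc (-3.43; -2.18 with the longest transcript) and -10.2 for Pdk2 (-15.9). The cause of these shifts was not tested. No paired analysis was possible because the labels carry no replicate numbers. Each overexpression-labelled library is a single one, and at 3 reads or fewer (Eno2, Ldhb and Slc16a3 in library 1) depth limits the size of a fall.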

Other observations

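Regulators of these pathways, a list of 39 of which 35 passed the filter, moved in both directions in overexpression-labelled library 1: 13 were higher and 10 lower (65.7% called, against 61.1% of all genes), with a median of 0.21 log2 units. In library 2, 1 was lower (2.86%, against 1.41% of all genes). Among those that passed, the largest rises were those of Trp53, the gene of p53, which stood at 274 CPM in library 1 and 102 CPM in library 2, against 42.7 and 69.0 CPM in wildtype (2.15 log2 units in library 1, adjusted p = 2.32e-06, limma), of Mxd4, a MAX partner that opposes MYC (2.10, adjusted p = 0.000157), and of Akt1, a kinase that promotes glucose use (2.07, adjusted p = 2.73e-06). The largest falls among them were those of Cnr2, a cannabinoid receptor that inhibits adenylyl cyclase (-3.01, adjusted p = 1.29e-08), of Bcl6, a repressor of glycolytic genes (-2.46, adjusted p = 1.02e-08), and of Foxo1, a transcription factor that AKT inhibits. Foxo1 stood at 243 CPM in library 1 and 335 CPM in library 2, against 677 and 584 CPM in wildtype. It fell by 1.51 log2 units in library 1 (adjusted p = 8.39e-07) and by 0.89 in library 2 (adjusted p = 0.00593), the only regulator of the list called in library 2. That second call ended in 4 of 9 alternatives with a test: totals without Rn45s, recomputed size factors, log2 of normalised reads plus 0.5, and no filter (adjusted p = 0.0643 to 0.359). Prkaa2, a catalytic subunit gene of AMP-activated protein kinase, was not tested because it reached the filter in 1 library only. It had 415 reads in library 1 and 11 in library 2, against 3 and 7 in wildtype, and is named after its values were seen.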
